A study of Mus musculus with 6 samples.

Results

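Synaptic organizers are adhesion proteins that meet across the synaptic cleft and bring the release machinery and the neurotransmitter receptors into register. Neurexins, the receptor phosphatases Ptprd, Ptprf and Ptprs and teneurins act mainly from the axon. Latrophilins are grouped with them here by family, and the side on which they act was not tested. Neuroligins, Lrrtm, Slitrk, Lrfn, Flrt and Lrrc4 proteins, calsyntenins and Il1rapl proteins act mainly from the dendrite, while neurexophilins and cerebellins are secreted and bind neurexins. Before synapses form, several of them already serve axon guidance and cell migration in the embryonic cortex. The set was defined by gene symbols and was chosen with earlier results of these data known. It holds 57 of the 22001 genes in the count table, in 15 families. The low-count filter kept 50 members for testing, among 13560 tested genes.

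RNA was sequenced from mCherry-positive cells that were sorted from the neocortex of mouse embryos. All embryos were electroporated in utero at E13.5 and dissected at E14.5, that is 24 h later. The control group (3 libraries) carried a plasmid for mCherry alone, and the Insm1 group (3 libraries) carried a plasmid for Insm1, a zinc-finger transcription factor of delaminating neural progenitors, together with mCherry. The cells were chosen by the reporter only, so each library mixes progenitors and young neurons, and the labels do not say how many embryos a library holds or whether libraries came from separate litters, so that p-values measure only the spread between these libraries.

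The libraries held between 30017645 and 31645135 counts. Insm1 itself was 5.61-fold higher in the Insm1 libraries (edgeR adjusted p = 0.0122). In CPM, counts scaled to a common library size, the controls gave 222, 331 and 371 and the Insm1 libraries 1570, 2173 and 1436, which matches the labels; reads of the plasmid and of the cell's own gene cannot be told apart. Of the markers of neighbouring cell types, 6 of 12 apical progenitor markers were called lower, with 9 lower at an unadjusted p below 0.05 and 8 lower in DESeq2. The 20 projection neuron markers did not share a direction, with 9 negative and 11 positive log2 fold changes. EdgeR called 6 higher and 1, Mef2c, lower; 9 were higher and 6 lower at an unadjusted p below 0.05, and DESeq2 called 9 higher and 3 lower. Of 8 basal progenitor markers, 3 were called higher and none lower by edgeR, with 4 higher and none lower at an unadjusted p below 0.05 and in DESeq2. Control 2 stood apart from the other controls. The summed level of 9 Cajal-Retzius cell markers was 215, 74.9 and 187 CPM in controls 1, 2 and 3, against 92.0 to 125 in the Insm1 libraries; none of the 8 of these that were tested was called by edgeR, 3 of them were lower at an unadjusted p below 0.05, and DESeq2 called 2 of them lower. Hemoglobin and other erythroid markers (8 genes) summed to 754, 5495 and 325 CPM in the controls and to between 3798 and 5150 in the Insm1 libraries, so that control 2 was at the level of the Insm1 libraries. Microglial markers (7 genes) ran from 1.33 to 72.5 CPM in the controls, highest in control 2, and from 10.9 to 38.1 in the Insm1 libraries. No erythroid or microglial marker was called by edgeR or DESeq2, or had an unadjusted p below 0.05. Interneuron markers (11 genes) summed to 13.7 to 22.0 CPM in the controls and 8.76 to 10.7 in the Insm1 libraries; edgeR called none of the 9 tested, 3 were lower at an unadjusted p below 0.05 and DESeq2 called 1 lower. Endothelial and meningeal markers stayed under 5 CPM in sum, with the meningeal gene Aldh1a2 at 0 throughout. The part of these cells in the results below was not tested. In sorted bulk samples, fewer cells of a type and less RNA per cell cannot be told apart.

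With Insm1, 4 organizer genes fell and 2 rose. The genes that fell, Lrfn5, Slitrk2, Nlgn1 and Lrrc4c, all encode partners that act mainly from the dendrite, and the genes that rose were Nxph4, a secreted neurexin ligand, and Tenm4, a teneurin. Partners of the dendrite side made up 27 of the 50 tested members, and roles were assigned after values were seen. The set itself was chosen with earlier results of these data known, which limits the shares below. Calls are at an adjusted p below 0.05 in edgeR's quasi-likelihood test over all tested genes. The 4 genes lower are 8% of the tested members, where 2.12% of all tested genes were lower. The 2 genes higher are 4%, where 1.23% of all tested genes were higher, and both directions together are 12% of the members and 3.35% of all tested genes. DESeq2, given beside edgeR, called 591 lower and 413 higher of 13291 genes with an adjusted p. The median log2 fold change of the 50 tested members was -0.22, beside -0.0086 over all tested genes, with 34 members negative and 16 positive.

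The promoters of the 4 genes that fell are shown because they are the members called lower, with any match to TGNNNGGGG in capitals. These 9 letters are a loosened core of the motif known for the Insm1 zinc fingers, and both strands were searched. Its variable places were set to N, which allows any base, so a match need not fit the full motif. Each window runs from 250 bases before to 50 bases after the most upstream start that RefSeq lists, on the gene's own strand (RefSeq, GRCm38.p6), so the last 50 bases belong to the first exon.
Lrfn5, chr12:61522917-61523216, plus strand: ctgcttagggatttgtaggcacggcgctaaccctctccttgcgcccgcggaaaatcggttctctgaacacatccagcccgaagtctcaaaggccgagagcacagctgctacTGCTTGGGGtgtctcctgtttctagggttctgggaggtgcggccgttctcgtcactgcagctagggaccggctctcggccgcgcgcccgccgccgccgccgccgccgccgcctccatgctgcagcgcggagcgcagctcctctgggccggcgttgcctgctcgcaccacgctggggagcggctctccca
Slitrk2, chrX:66649068-66649367, plus strand: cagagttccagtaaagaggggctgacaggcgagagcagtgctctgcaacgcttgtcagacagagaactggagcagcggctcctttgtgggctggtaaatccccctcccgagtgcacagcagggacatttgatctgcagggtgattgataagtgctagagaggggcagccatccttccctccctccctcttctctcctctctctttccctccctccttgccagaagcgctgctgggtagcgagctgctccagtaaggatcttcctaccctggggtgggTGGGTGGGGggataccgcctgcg
Nlgn1, chr3:26331860-26332159, minus strand: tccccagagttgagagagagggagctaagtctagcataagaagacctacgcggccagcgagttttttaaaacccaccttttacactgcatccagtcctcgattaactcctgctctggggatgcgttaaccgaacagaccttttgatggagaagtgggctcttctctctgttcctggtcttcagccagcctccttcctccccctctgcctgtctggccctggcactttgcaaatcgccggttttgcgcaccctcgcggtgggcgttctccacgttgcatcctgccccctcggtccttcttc
Lrrc4c, chr2:96317919-96318218, plus strand: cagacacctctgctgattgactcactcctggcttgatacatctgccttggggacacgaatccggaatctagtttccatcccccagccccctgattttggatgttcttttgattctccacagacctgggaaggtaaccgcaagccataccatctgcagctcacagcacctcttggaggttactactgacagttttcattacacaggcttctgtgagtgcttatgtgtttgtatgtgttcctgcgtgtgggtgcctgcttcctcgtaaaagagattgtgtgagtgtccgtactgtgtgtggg
The Lrfn5 and Slitrk2 windows each hold 1 match on the gene's strand, upstream of the start in Lrfn5 and within the first exon in Slitrk2. The Nlgn1 and Lrrc4c windows hold none, although the window of a further Nlgn1 start, at chr3:26153937-26154236, holds 1. A further Slitrk2 start, at chrX:66652909-66653208, has 1 match on the other strand. Of the 40 members with a RefSeq window, 18 (45%) hold a match in at least 1 window, beside 28.8% of all 27025 genes in the table. Member windows are also richer in G and C, with a median of 57.7% beside 52.7%, and a match describes letters only, not binding. Of the genes that rose, Nxph4 has no entry in that table. The first Tenm4 window, at chr7:96170994-96171293, holds no match. A further Tenm4 start, at chr7:96211421-96211720, has 1 match on the other strand.

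Lrfn5 (SALM5) is a leucine-rich repeat protein that binds receptor phosphatases across the synapse, and its level changed the most among the members. Its gene spans chr12:61523150-61858342 on GRCm38. It measured 30.1, 12.2 and 24.9 CPM in controls 1 to 3 and 4.65, 4.15 and 4.82 CPM in the Insm1 libraries. All controls lay above all Insm1 libraries, and control 2 was the lowest control. The mean was 22.4 ± 9.23 (SD, n = 3) CPM in controls and 4.54 ± 0.348 (SD, n = 3) with Insm1, a 4.93-fold fall (log2 fold change -2.30, SE 0.30, edgeR adjusted p = 0.00559). It stayed called when any single library was left out, at an adjusted p of 0.000155 without control 2 and at most 0.0352 otherwise.

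Slitrk2 belongs to a family of transmembrane proteins that bind Ptprs and Ptprd and promote synapse formation. It lies at chrX:66649318-66661393. Its level was 53.3, 36.6 and 53.7 CPM in the controls and 26.0, 26.1 and 21.5 CPM in the Insm1 libraries, so that the groups did not overlap and control 2 was again the lowest control. The level fell 1.95-fold (log2 fold change -0.96, SE 0.16, edgeR adjusted p = 0.0113). Without control 3 the adjusted p was 0.0610, and leaving out any of the other libraries kept the call on the same set of tested genes; with the filter repeated it was 0.0514 without Insm1 3.

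Nlgn1, a neuroligin of excitatory synapses and a postsynaptic partner of the neurexins, is a gene of 906 kb at chr3:25426215-26332460. It measured 38.5, 25.2 and 33.0 CPM in the controls and 14.7, 19.8 and 18.6 CPM with Insm1, again without overlap. The level fell 1.82-fold (log2 fold change -0.86, SE 0.17, edgeR adjusted p = 0.0263). Its exons overlap the opposite-strand gene A830092H15Rik, and an unstranded library cannot tell such reads apart. Of the 6 fits that left out 1 library, only that without control 2 kept the call (adjusted p = 0.00682); in the others the adjusted p ran from 0.0574 without Insm1 2 to 0.115 without control 3.

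Lrrc4c (NGL-1) binds netrin-G1 on incoming axons, and its gene reaches over 1313.5 kb, at chr2:96318169-97631666. The controls gave 40.1, 28.5 and 27.9 CPM and the Insm1 libraries 19.2, 20.5 and 20.1 CPM. Here control 1 was high and the other controls were alike, and all stood above the Insm1 libraries. The level fell 1.61-fold (log2 fold change -0.69, SE 0.15, edgeR adjusted p = 0.0376). Again only the fit without control 2 kept the call (0.0256), and the other leave-one-out adjusted p-values ran from 0.0701 without control 3 to 0.107 without Insm1 3. With limma-voom in place of edgeR the adjusted p was 0.0624.

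Nxph4 encodes a neurexophilin, a secreted protein that binds neurexins. Its gene is short, 9.09 kb at chr10:127525473-127534559. It measured 51.8, 41.9 and 41.1 CPM in the controls and 91.2, 103 and 70.6 CPM in the Insm1 libraries. Each Insm1 library exceeded each control. The level rose 1.96-fold (log2 fold change 0.97, SE 0.14, edgeR adjusted p = 0.00875). The call held without any single library on the same set of tested genes, with the highest adjusted p, 0.0491, without control 3; with the low-count filter repeated on those 5 libraries it was 0.0538.

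Tenm4, a large type II transmembrane teneurin that binds latrophilins, lies at chr7:96171246-96911093. The controls measured 405, 403 and 385 CPM and the Insm1 libraries 471, 519 and 487 CPM, with little spread within a group and no overlap. The level rose 1.24-fold (log2 fold change 0.31, SE 0.058, edgeR adjusted p = 0.0204). The call was lost without control 3 (0.0974), without Insm1 2 (0.0762) and without Insm1 3 (0.0706), and, with the filter repeated, also without control 1 (0.0513).

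**Figure D1:**
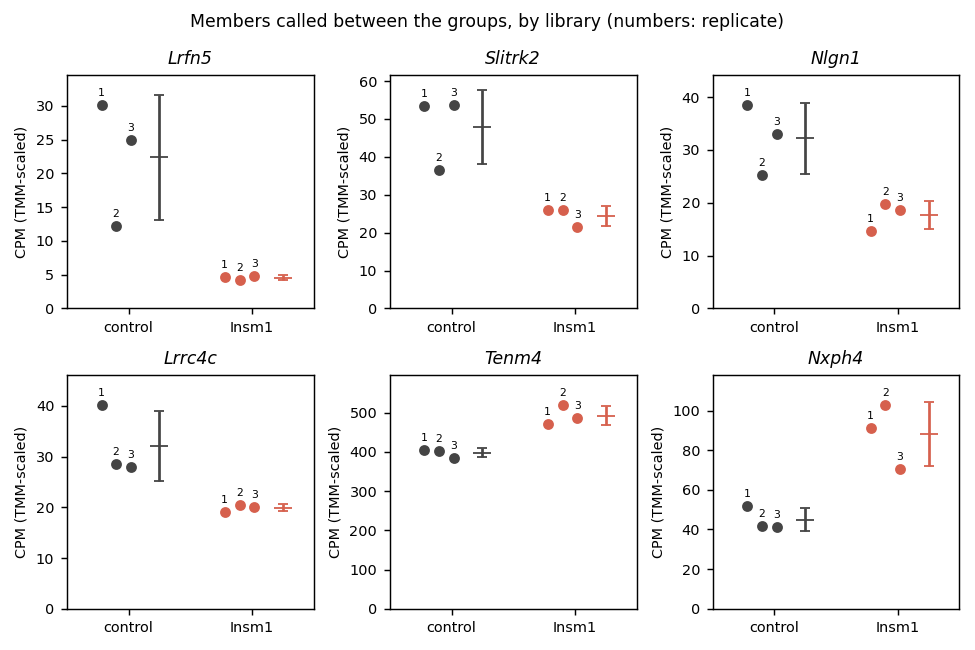
CPM (vertical axes, from 0) of the 6 called members in each library, with replicate numbers above the points and bars for the mean ± SD of 3 libraries. In each panel the groups stay apart, from Lrfn5 at 4.15 to 4.82 with Insm1 against 12.2 to 30.1 in controls, to Tenm4 at 471 to 519 against 385 to 405.

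Among the 13 members grouped as presynaptic receptors, latrophilins included, all were tested. In edgeR 1 was higher (Tenm4) and none lower. At an unadjusted p below 0.05, 1 was lower and 3 were higher, and DESeq2 called 1 lower and 2 higher (Tenm4 and Ptprs); the median log2 fold change was -0.089. Ptprs, a receptor phosphatase that is the axonal partner of Slitrk, Lrrc4b and Lrfn proteins, was the most abundant member, at 97.6 CPM per kb of exon in controls. It measured 1605, 1441 and 1342 CPM in the controls and 1699, 2027 and 1788 CPM with Insm1, and the groups did not overlap. Its log2 fold change was 0.33 (SE 0.080) with an edgeR adjusted p of 0.0569, and it passed the threshold without control 1 (0.0409). The related phosphatases Ptprf and Ptprd showed log2 fold changes of 0.030 and -0.12 and overlapping groups.

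Among the neurexins, Nrxn2 gave 17.3 CPM in controls and 23.0 CPM with Insm1 (log2 fold change 0.41), and Nrxn3, at 2.36 and 1.05 CPM, gave -1.17 with an SE of 0.60. Neither was called, and their fold changes did not share a sign. Exons of Nrxn2 overlap Slc22a12 on the other strand.

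The latrophilins, adhesion G-protein-coupled receptors, included Lphn1 (114 and 127 CPM in controls and Insm1, log2 fold change 0.16), whose groups did not overlap. Lphn2 (274 and 258 CPM, -0.089) and Lphn3 (17.3 and 13.4 CPM, -0.37) overlapped between groups. Of the teneurins, only Tenm4 was called. Tenm3 (94.6 and 87.3 CPM), Tenm2 (37.5 and 32.9 CPM) and Tenm1 (4.78 and 4.86 CPM) had log2 fold changes of -0.12, -0.19 and 0.024.

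Of the 8 secreted members, 7 were tested, 1 was higher (Nxph4) and none lower in edgeR, with 1 lower at an unadjusted p below 0.05 and none lower in DESeq2. Their median log2 fold change was -0.41, with 6 negative and 1 positive. The neurexophilins did not share a direction. Nxph3 measured 6.48, 2.40 and 4.18 CPM in controls and 2.59, 1.98 and 1.88 CPM with Insm1 (log2 fold change -1.02, edgeR adjusted p = 0.192). Nxph3 was called lower without control 2 only (0.0491), and with the low-count filter repeated that call was lost. Nxph1 and Nxph2 averaged 1.82 and 0.791 CPM in controls, with log2 fold changes of -0.71 and -1.38 and standard errors of 0.47 and 0.94. Cerebellins, which link neurexins to glutamate delta receptors, were low to moderate. Cbln2 measured 28.3 and 23.7 CPM in controls and Insm1 (log2 fold change -0.26), Cbln1 4.60 and 4.51 CPM (-0.031) and Cbln3 1.65 and 1.24 CPM (-0.41).

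The 29 postsynaptic partners held all 4 genes that fell. Of these 29, 27 were tested and none was higher in edgeR or DESeq2. At an unadjusted p below 0.05, 12 were lower and 2 higher. DESeq2 called 9 lower, the 4 of edgeR and Clstn2 (DESeq2 adjusted p = 0.00121), Lrrtm3 (0.00336), Flrt2 (0.0201), Nlgn3 (0.0204) and Slitrk5 (0.0374). The median log2 fold change of the 27 was -0.26, with 18 negative and 9 positive, beside -0.22 over all 50 tested members. In the Lrfn family only Lrfn5 was called, in either direction. Lrfn4 (93.5 and 105 CPM in controls and Insm1), Lrfn1 (19.0 and 20.9 CPM) and Lrfn3 (15.9 and 16.0 CPM) had log2 fold changes of 0.17, 0.14 and 0.010, and Lrfn2 averaged 0.466 CPM in controls. The ratio of Lrfn5 to Lrfn1 went from 1.56, 0.653 and 1.31 in the controls to 0.246, 0.191 and 0.218 with Insm1.

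Neuroligins also split. Nlgn3 measured 114, 94.6 and 118 CPM in the controls and 92.4, 85.3 and 76.7 CPM with Insm1 (log2 fold change -0.36, edgeR adjusted p = 0.0941), and without control 2 its adjusted p was 0.0238. Nlgn2, the neuroligin of inhibitory synapses, measured 22.5, 24.0 and 26.5 CPM in the controls and 28.3, 34.9 and 31.2 CPM with Insm1 (log2 fold change 0.37, edgeR adjusted p = 0.139). The groups did not overlap for Nlgn3 or Nlgn2, which lay in opposite directions. The ratio of Nlgn1 to Nlgn2 went from 1.71, 1.05 and 1.25 in controls to 0.519, 0.569 and 0.597 with Insm1.

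In the Lrrc4 family, Lrrc4 (6.80 and 3.70 CPM in controls and Insm1, log2 fold change -0.88, edgeR adjusted p = 0.125) did not overlap between groups, and nor did Lrrc4b (61.7 and 73.2 CPM, 0.25, edgeR adjusted p = 0.139), which was higher. Of the Slitrk genes, Slitrk5 (43.6 and 33.6 CPM, -0.38, edgeR adjusted p = 0.103) was separated as well. Slitrk4 (8.74 and 5.95 CPM, -0.55), Slitrk3 (5.39 and 3.87 CPM, -0.48) and Slitrk1 (26.5 and 29.2 CPM, 0.14) overlapped. Slitrk2 was thus the only member of its family called by edgeR, while DESeq2 also called Slitrk5 lower (DESeq2 adjusted p = 0.0374).

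Lrrtm proteins are leucine-rich ligands of neurexins. Lrrtm3 measured 11.0, 4.80 and 7.51 CPM in controls and 1.97, 1.49 and 4.17 CPM with Insm1 (log2 fold change -1.61, edgeR adjusted p = 0.0766), and it was called without control 2 (0.0291) or Insm1 3 (0.0373). Control 2 lay just above the highest Insm1 library. Lrrtm1 (41.4 and 34.6 CPM, -0.26), Lrrtm2 (28.8 and 26.1 CPM, -0.14) and Lrrtm4 (22.1 and 24.4 CPM, 0.14) overlapped between groups. Exons of Lrrtm2 overlap Ctnna1 on the other strand.

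Clstn2, one of the calsyntenins, cadherin-like synaptic membrane proteins, had the second most negative fold change of the set. It measured 16.9, 4.22 and 11.9 CPM in the controls and 2.84, 3.82 and 3.78 CPM with Insm1 (log2 fold change -1.66, SE 0.43, edgeR adjusted p = 0.0768). Control 2 stood close to the Insm1 libraries, and without it the adjusted p was 0.00225. Its relatives Clstn1 (284 and 304 CPM, 0.099) and Clstn3 (34.9 and 36.0 CPM, 0.045) were more abundant and overlapped between groups.

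Flrt proteins bind latrophilins and Unc5 receptors and guide migrating cortical neurons. Flrt3 (216 and 190 CPM in controls and Insm1, log2 fold change -0.19) and Flrt1 (104 and 99.6 CPM, -0.062) overlapped. Flrt2 measured 105, 95.2 and 107 CPM in the controls and 61.2, 94.6 and 66.2 CPM with Insm1 (-0.47, edgeR adjusted p = 0.128); Insm1 2 lay beside the lowest control, and without that library the adjusted p was 0.0204. Il1rapl1, a partner of Ptprd, averaged 3.54 and 1.92 CPM (-0.88, edgeR adjusted p = 0.173) without overlap.

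The contactin-associated proteins, which organise axonal membrane domains, were mostly scarce: 3 of 7 were tested and none was called by edgeR or DESeq2, with 2 lower and none higher at an unadjusted p below 0.05. The median log2 fold change of these 3 was -1.01, and all 3 were negative. Cntnap2 measured 36.9, 44.3 and 49.0 CPM in controls and 35.4, 26.3 and 38.5 CPM with Insm1 (log2 fold change -0.38, edgeR adjusted p = 0.244). Cntnap4, at 12.5, 3.99 and 9.04 CPM in controls and 5.14, 3.34 and 4.23 CPM with Insm1, was called lower only without control 2 (0.0172). Untested were Cntnap1, Cntnap5a, Cntnap5b, Cntnap5c, Cbln4, Il1rapl2 and Slitrk6, which summed to between 0 (Slitrk6) and 57 (Cbln4) counts over the 6 libraries. The 11 tested members under 5 CPM on average had log2 fold changes between -1.38 and 0.024, and their lowest edgeR adjusted p was 0.173.

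**Figure D2:**
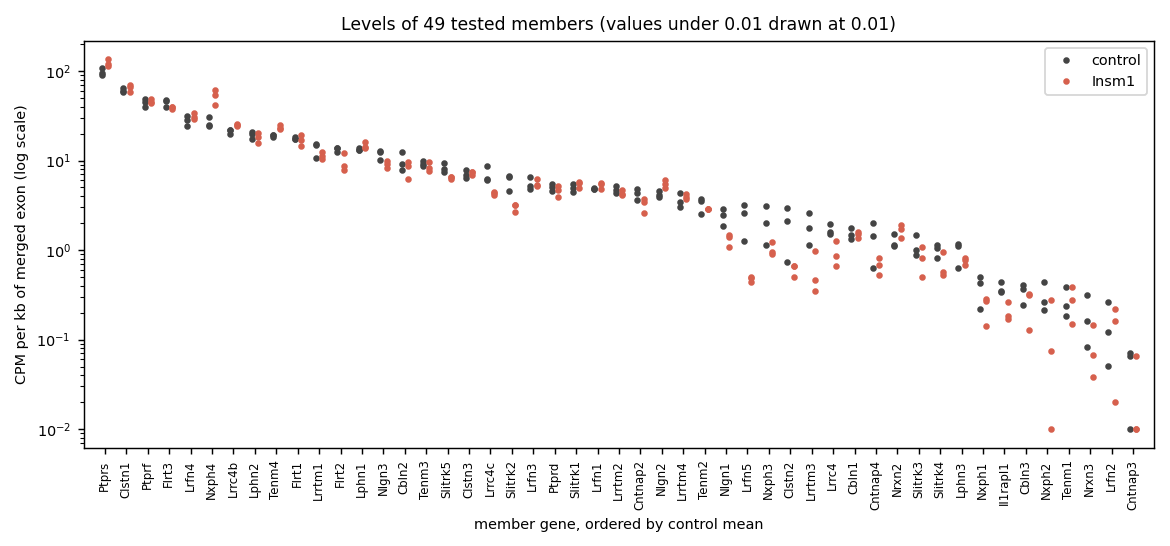
CPM per kb of merged exon (log axis) of 49 tested members in each of the 6 libraries, ordered by the control mean. Levels run from Ptprs, at 97.6 in controls, to Cntnap3, at 0.0457, and the Lrfn5 points of the groups lie well apart.

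Counting members whose groups did not overlap, whatever their adjusted p, gave 12 lower (24%, against 11.8% of all tested genes) and 6 higher (12%, against 10.4%). Of the 12, 11 were postsynaptic partners, a role that holds 27 of the 50 tested members. An unadjusted p below 0.05 was reached by 22 of 50 members (44%, 16 lower and 6 higher), beside 17.2% of all tested genes (1314 lower and 1025 higher of 13560). Control 2 was the lowest control in 27 of 50 members and in 13 of the 16 that were lower at that p, while over all tested genes it was lowest in 5065 of 13560. Without control 2, 10 members were called lower in place of 4, and 2 higher as before. The additions included Clstn2, Lrrtm3, Nlgn3, Cntnap4 and Nxph3, of which Nxph3 was not called with the low-count filter repeated. Calls over all tested genes rose as well, from 287 lower and 167 higher to 418 and 227. Taking log2(CPM + 1) minus the control mean, the median over members came to 0.060, -0.094 and 0.049 for controls 1, 2 and 3, and the Insm1 libraries had -0.25, -0.15 and -0.065, so that control 2 lay below Insm1 3.

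**Figure D3:**
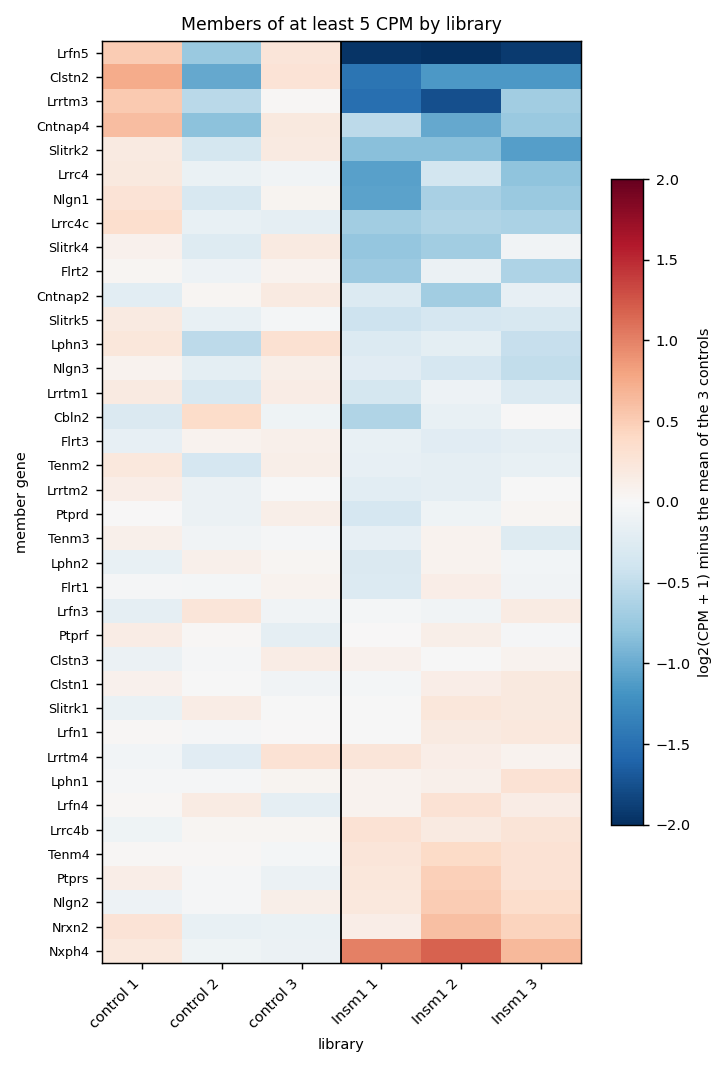
Level of 38 members of at least 5 CPM in each library, as log2(CPM + 1) minus the mean of the 3 controls (colour), ordered by fold change. Blue runs through the Insm1 columns of Lrfn5, Clstn2 and Lrrtm3 and, more weakly, the control 2 column of the same genes, and red marks Nxph4.

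Within families, each called member was set against its relatives of at least 5 CPM, as a ratio in each library, which gave 12 pairs. These are descriptions with no test, since the called members were chosen for groups that separate. The ratios did not overlap between the groups in 10 pairs. They overlapped for Lrrc4c to Lrrc4, at 5.10, 4.67 and 4.34 in controls and 7.23, 4.10 and 5.81 with Insm1, and for Slitrk2 to Slitrk4. The controls gave Tenm4 to Tenm3 ratios of 4.01, 4.50 and 4.14, all below the 5.59, 5.24 and 6.21 of the Insm1 libraries.

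Long genes were common among the members: the median span, introns included, was 82.0 kb, beside 24.7 kb for all tested genes. The 23 members over 100 kb had a median log2 fold change of -0.57 with 3 called lower and 1 higher, and the 27 shorter members -0.062 with 1 lower and 1 higher. Over all tested genes the same split gave 5.99% and 1.44% called lower. Spearman's rho between span and log2 fold change was -0.28 across the 50 members and -0.11 across 13455 genes, as descriptions across genes that share the same libraries. Slitrk2, at 12.1 kb, fell without being long, and Tenm4, at 740 kb, rose. Whether intronic reads were counted is not given in the sources used here, and the part of gene length in the calls was not tested.

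**Figure D4:**
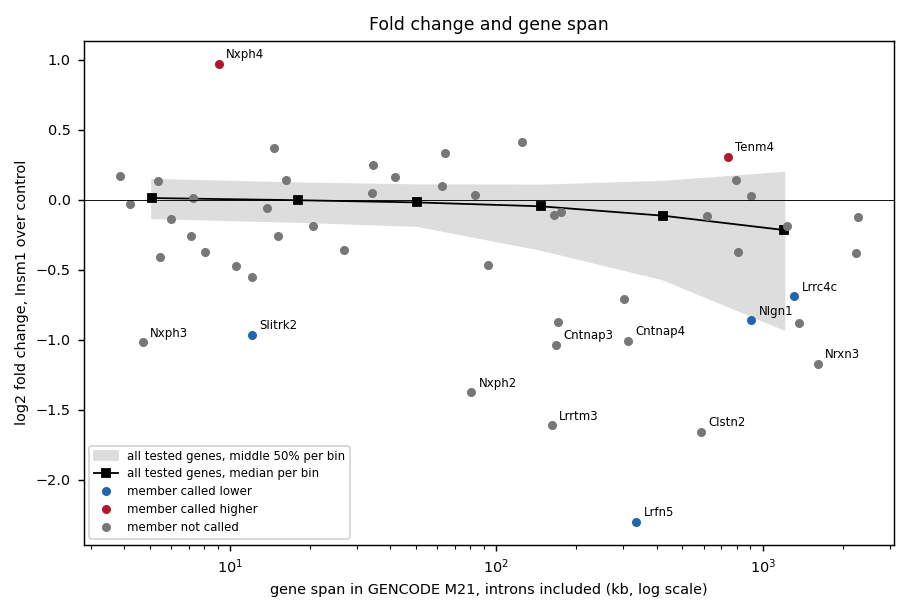
Log2 fold change (Insm1 over control) against gene span in kb (log axis, GENCODE M21) for 49 tested members, over the median (line) and middle 50% (grey band) of all tested genes in 6 bins of span. The grey band widens downward with span, and Lrfn5, Nlgn1 and Lrrc4c lie at the long end while Slitrk2 and Nxph4 are short.

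Other genes that work with these proteins were read from lists of partners and scaffolds. Of 30 tested further synaptic adhesion genes and ligands, 4 fell and 1 rose in edgeR, where 2.12% of all tested genes were lower and 1.23% higher. At an unadjusted p below 0.05, 9 were lower and 4 higher, DESeq2 called 6 lower and 3 higher, and the median log2 fold change was -0.17. Nptxr, a neuronal pentraxin receptor, fell from 20.6, 7.07 and 16.5 CPM to 3.68, 3.50 and 4.14 CPM (log2 fold change -1.96, edgeR adjusted p = 0.0157). Control 2 was its lowest control, as for Lrfn5. Bai2, an adhesion receptor, fell from 26.7, 26.0 and 26.7 CPM to 16.0, 16.3 and 14.9 CPM (-0.75, edgeR adjusted p = 0.00982), with controls that hardly varied. Mdga2, which binds neuroligins and blocks neurexin (-1.51), and Elfn2 (-1.17) also fell, and Igsf21, which binds neurexin 2, rose (0.44).

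Presynaptic scaffolds gave 1 gene higher, Pclo (0.45, edgeR adjusted p = 0.0331), and none lower among 22 tested, with 2 lower and 6 higher at an unadjusted p below 0.05; DESeq2 called none lower and 2 higher. Their median log2 fold change was 0.19. Postsynaptic scaffolds gave 2 lower among 24 tested, Dlgap1 (-1.50, edgeR adjusted p = 0.0211) and Magi1 (-0.33, edgeR adjusted p = 0.0477), and none higher. At an unadjusted p below 0.05, 9 were lower and 2 higher, and DESeq2 called 4 lower and 1 higher. Their median was -0.16. Whether the scaffold lists or the roles of the organizers differ from each other was not tested.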

How the data were processed

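Poly-dT primed, template-switched and PCR-amplified cDNA was sequenced without strand or molecular identifiers, per the labels' protocols, so counts are of amplified fragments. The submitters' processing notes name bcl2fastq, TopHat2 2.0.13, Bowtie and GRCm38. How reads were assigned to genes is not given in the sources used here. Raw counts for 6 libraries were deposited by the authors. Their deposited TPM values match counts divided by the whole gene span, introns included (within 0.05 on the log2 scale for 96.9% of 8229 genes with at least 500 counts, against 2.77% for exon length), so levels between genes are given here as CPM per kb of merged exon (GENCODE M21).

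The whole table was fitted in edgeR 4.0.16 (R 4.3.3) with filterByExpr, TMM factors between 0.975 and 1.02 and robust quasi-likelihood fitting with group as the only term, and p-values were adjusted by Benjamini-Hochberg over 13560 genes. CPM is TMM-scaled. The code was tested on simulated data. Library pairs of a group differed by a chi-square per degree of freedom of 12.9 to 32.5, so each counted as 1 sample. Libraries with the same replicate number showed correlations of deviations of 0.074, 0.035 and -0.055, beside -0.097 to 0.065 for different numbers. With 3 libraries a group, these values cannot show whether the numbers mark shared litters.

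Every called member, and every tested member of at least 5 CPM on average, is named, except 1 that is not reported here by name or drawn but is in the counts over members; the members and lists were chosen with earlier results of these data known. The roles, the 100 kb split, the family ratios and the motif search were added after values were seen. Alternatives were other scalings, DESeq2 1.42.0, limma 3.58.1 (voom and log2 TPM), other filters, a replicate block, and leaving out each library.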

Additional observations from a re-analysis of the deposited data

How the results depend on the processing

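The 4 members lower and 2 higher were the same 6 genes with RLE or upper-quartile scaling and without the robust fit, and no called member changed sign under any alternative run. DESeq2 called 10 lower and 3 higher, on the tested genes or on all genes with a count, and these included the 6. Over the whole table it also called more genes than edgeR. It called 591 lower and 413 higher of 13291 genes with an adjusted p, beside 287 and 167 of 13560. Limma-voom called 3 lower, without Lrrc4c, and 2 higher. With no filter on low counts, or with at least 5 CPM in 3 libraries, 4 were lower and 3 higher, the addition being Ptprs. On the deposited TPM, limma called 0 members lower and 0 higher at either pseudocount, with 12 lower and 5 higher at an unadjusted p below 0.05 for log2(TPM + 1) and 13 and 4 for log2(TPM + 0.1). That limma test was run in 3 forms, plain, with a trend, and with a trend and robust; the form was switched after seeing gene counts, over all genes they called 46, 60 and 100 at a pseudocount of 1 and 21, 64 and 96 at 0.1, and each called 0 members. The fit with a replicate block called 2 lower (Lrfn5 and Slitrk2) and 1 higher (Nxph4); the adjusted p of the others was 0.0792 (Nlgn1), 0.0732 (Lrrc4c) and 0.0523 (Tenm4). Leaving out each library in turn gave 1 to 10 lower and 1 to 3 higher, or 1 to 9 and 0 to 2 with the filter repeated, a form run first and then replaced to change 1 choice at a time. On the same set of 13560 tested genes, these fits called 73 (without control 3) to 418 (without control 2) genes lower and 43 to 227 higher. The cause was not tested for these shifts. With 3 libraries a group, fold changes of members under 5 CPM are imprecise, with standard errors up to 1.41.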
